A study of Mus musculus with 8 samples.

Results

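The transcriptional response of mouse splenic CD4+ T cells to 16 hours of stimulation with beads coated with anti-CD3 and anti-CD28 antibodies was described in control offspring, the offspring of untreated parents. The 4 libraries of control offspring, of 8 libraries in the series, were chosen by their labels: 2 were made from unstimulated cells, lysed at 0 hours, and 2 from cells stimulated for 16 hours. The mice were of the strain C.Cg-Foxp3tm2Tch/J, which carries a green fluorescent reporter in the Foxp3 gene on a BALB/c background, and were 8 weeks old. The other 4 libraries came from the same strain at the same age and with the same stimulation, but from parents given 10 ppm Cd in drinking water, and they served to share the estimate of the spread and for 1 comparison at the end. CD4+ T cells had been enriched by negative selection and sorted, and the study describes them as CD4+CD25- conventional T cells. No library came from cells cultured for 16 hours without beads, so that the effect of the beads and that of the culture cannot be told apart. The labels name replicates 6 and 7 in each group and do not tie libraries to animals; p-values therefore measure the spread between these libraries, which may be technical.

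The level of each gene is given in RPKM, the reads of a gene per kilobase of its transcript, scaled to the reads of the library, so that a level is a share of the RNA of a library and says nothing of the amount of RNA per cell. Pairs of values are in the order replicate 6 and replicate 7. The control libraries held 17985238 and 16299659 reads on genes without stimulation and 15542728 and 19449720 with it. A gene was called when limma on log2(RPKM + 0.1) gave an adjusted p under 0.01 (Benjamini-Hochberg over all 12605 genes with a mean of at least 0.5 RPKM over the 8 libraries) and the level changed more than 2-fold. The words rose and fell are used for called genes only. Fold changes on this scale understate the change of low genes. With 2 libraries against 2, an exact permutation test (two-sided) cannot go below p = 0.333, so that the calls rest on the spread taken over all genes and all 8 libraries. The 9 T cell genes on the marker list together held 0.707% and 0.716% of the RPKM of all coding genes without and 0.470% and 0.471% with stimulation. Cd4 stood at 315 and 308 RPKM without and 219 and 212 RPKM with it. Ms4a1 of B cells, Lyz2 and S100a8 of myeloid cells, Hba-a1 of erythroid cells and Ncr1 of NK cells were listed at 0 in all 4. Other markers were detected: the 6 B cell markers summed to 3.21 to 4.33 RPKM, most of it Cd79a (3.35 and 2.87 RPKM without and 4.17 and 4.15 RPKM with stimulation), and the 8 myeloid markers summed to 6.23 and 6.62 RPKM without and 3.21 and 3.50 RPKM with stimulation, most of it Cd68 (4.25 and 4.63 RPKM, then 2.74 and 2.91 RPKM). Cd8a stayed under 0.2 RPKM, while Cd8b1 was at 9.40 to 11.7 RPKM. Xist was at 49.3 to 67.1 RPKM and the 4 Y-linked genes on the list were at 0 in each control library.

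A resting T cell is small, divides rarely and keeps its state through transcription factors such as Foxo1 and Klf2, which also hold the genes for lymph node homing and recirculation on. Engagement of the T cell receptor and CD28 activates NFAT, AP-1 and NF-kB, which drive the genes of interleukin 2 and of its high affinity receptor, and Myc, which drives growth. The cell then takes up amino acids and glucose, builds ribosomes and nucleotides, and enlarges before it enters S phase. Immediate early genes such as Fos, Jun and Egr1 are known to respond within minutes to many stimuli and to fall back quickly.

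The promoters of 6 genes are shown because these genes mark the programmes described here. Fos and Dusp1 stand for the immediate early genes that fell, Irf4, Il2 and Il2ra for the activation genes that rose most, and Nop2 for the ribosome biogenesis genes. Each sequence runs from 250 bases before to 50 bases after the RefSeq start of the gene (GRCm38.p6), 5′ to 3′ on the strand of the gene. Capitals mark every match, on either strand, to the E-box CACGTG, the cAMP response element TGACGTCA, the AP-1 site TGANTCA, the kappaB motif and the NFAT core GGAAA. On the opposite strand the last of these reads TTTCC.
Fos (chr12:85473640-85473939, plus strand): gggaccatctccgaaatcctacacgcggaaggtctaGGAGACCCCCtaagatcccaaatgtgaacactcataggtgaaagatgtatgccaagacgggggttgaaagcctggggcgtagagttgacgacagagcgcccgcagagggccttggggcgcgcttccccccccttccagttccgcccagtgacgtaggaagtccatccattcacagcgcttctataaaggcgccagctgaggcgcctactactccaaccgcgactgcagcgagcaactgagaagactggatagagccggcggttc
Dusp1 (chr17:26508423-26508722, minus strand): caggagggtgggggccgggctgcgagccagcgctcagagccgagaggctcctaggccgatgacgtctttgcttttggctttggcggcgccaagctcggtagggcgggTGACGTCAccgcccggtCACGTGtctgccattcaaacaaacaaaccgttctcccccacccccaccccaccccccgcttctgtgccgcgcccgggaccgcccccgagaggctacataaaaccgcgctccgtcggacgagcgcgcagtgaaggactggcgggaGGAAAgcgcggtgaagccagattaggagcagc
Irf4 (chr13:30748983-30749282, plus strand): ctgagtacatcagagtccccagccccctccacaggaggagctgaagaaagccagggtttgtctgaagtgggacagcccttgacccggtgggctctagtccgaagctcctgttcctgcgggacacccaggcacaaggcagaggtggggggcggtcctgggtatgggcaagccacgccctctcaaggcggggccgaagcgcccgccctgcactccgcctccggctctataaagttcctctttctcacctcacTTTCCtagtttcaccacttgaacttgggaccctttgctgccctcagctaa
Il2 (chr3:37125905-37126204, minus strand): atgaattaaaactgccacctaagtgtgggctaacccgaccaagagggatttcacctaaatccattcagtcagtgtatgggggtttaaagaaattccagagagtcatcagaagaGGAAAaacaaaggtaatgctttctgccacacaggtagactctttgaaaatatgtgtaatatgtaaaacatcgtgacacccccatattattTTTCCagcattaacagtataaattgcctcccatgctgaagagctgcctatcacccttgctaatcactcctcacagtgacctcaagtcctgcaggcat
Il2ra (chr2:11642542-11642841, plus strand): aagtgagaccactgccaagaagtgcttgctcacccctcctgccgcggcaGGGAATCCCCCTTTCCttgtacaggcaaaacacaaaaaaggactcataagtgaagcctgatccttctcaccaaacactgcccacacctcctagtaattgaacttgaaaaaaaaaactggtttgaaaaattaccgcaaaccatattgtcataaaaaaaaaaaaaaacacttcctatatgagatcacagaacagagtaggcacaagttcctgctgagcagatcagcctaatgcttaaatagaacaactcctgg
Nop2 (chr6:125131633-125131932, plus strand): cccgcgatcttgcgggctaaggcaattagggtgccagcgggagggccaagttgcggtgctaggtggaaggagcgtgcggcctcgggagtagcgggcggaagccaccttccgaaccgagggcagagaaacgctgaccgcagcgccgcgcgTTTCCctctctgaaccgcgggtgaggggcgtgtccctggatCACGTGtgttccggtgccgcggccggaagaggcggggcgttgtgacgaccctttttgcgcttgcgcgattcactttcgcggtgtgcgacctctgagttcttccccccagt
In Dusp1 the cAMP response element begins 143 bases and the E-box 126 bases before the start. Il2 held the NFAT core 137 and 47 bases before its start. In Il2ra a pair of kappaB matches, which overlap each other by all but 1 base, begins 201 bases before the start and is followed directly by an NFAT core. The NFAT core of Irf4 lies at the start itself. Nop2 held an E-box 60 bases before its start. Myc had no entry.

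Over the lists of genes described here, the shares of promoters with each motif are given as a description, in lists of few promoters. The NFAT core was in 12 of 13 cytokine promoters (92.3%) and 10 of 11 of the helper lineage list (90.9%). All 5 chemokine promoters and all 4 of the SOCS family also held it. It was in 7 of 19 immediate early promoters (36.8%). Shares were also low in 3 of 8 polyamine promoters (37.5%) and 2 of 7 of amino acid transporters (28.6%). These shares stand against 59.1% of the 8761 promoters of protein-coding genes tested and 61.3% of the promoters of all 27025 genes in the table. The kappaB motif was in 7 of 19 immediate early promoters (36.8%), and in like shares in 2 of 5 chemokine promoters (40.0%) and 6 of 18 promoters of the tricarboxylic acid cycle (33.3%), against 10.0% of the coding genes tested and 8.18% of all. An E-box was in 10 of 43 promoters of ribosome biogenesis genes (23.3%) and in 4 of 13 promoters of tRNA synthetase genes (30.8%), against 10.5% and 7.24%. Cholesterol, immediate early and nucleotide synthesis genes had an E-box at like shares, in 4 of 17, 4 of 19 and 4 of 20 promoters. Of the 39 ribosome biogenesis genes that rose, 7 had an E-box in this window, Nop2, Mybbp1a, Grwd1, Pes1, Wdr43, Tsr1 and Nle1. Genes on chromosome 18 were left out of this count, and genes without a listed promoter could not enter it. The count is therefore not a share to set beside those above. A match is a run of letters and not a measured binding site, and the kappaB and NFAT motifs can share bases.

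Stimulation changed the level of 2037 of the 10742 protein-coding genes tested (19.0%). Of these, 1298 rose (12.1% of those tested) and 739 fell (6.88%). The counts of genes called in each list below are to be read against these shares. Over all 12605 genes, coding or not, 18.7% were called, 11.5% higher and 7.17% lower, and the stimulated pair of libraries lay wholly above the unstimulated pair for 46.0% and wholly below it for 37.2%. The median size of the change was a log2 fold change of 1.43 among genes that rose and 1.38 among genes that fell. More than 4-fold changes were seen for 298 genes that rose and 143 that fell, and more than 16-fold changes for 39 and 10. In each of these 2037 genes the groups did not overlap, but the stimulated libraries lay above both unstimulated libraries for 48.6% and below both for 37.2% of all coding genes tested, so that separation alone is common here. Across genes, the Pearson correlation of log2 levels was 0.983 between the unstimulated and 0.986 between the stimulated libraries, and 0.894 to 0.903 between libraries of different groups (genes are not independent replicates). The median log2 fold change of all coding genes was 0.093.

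**Figure D1:**
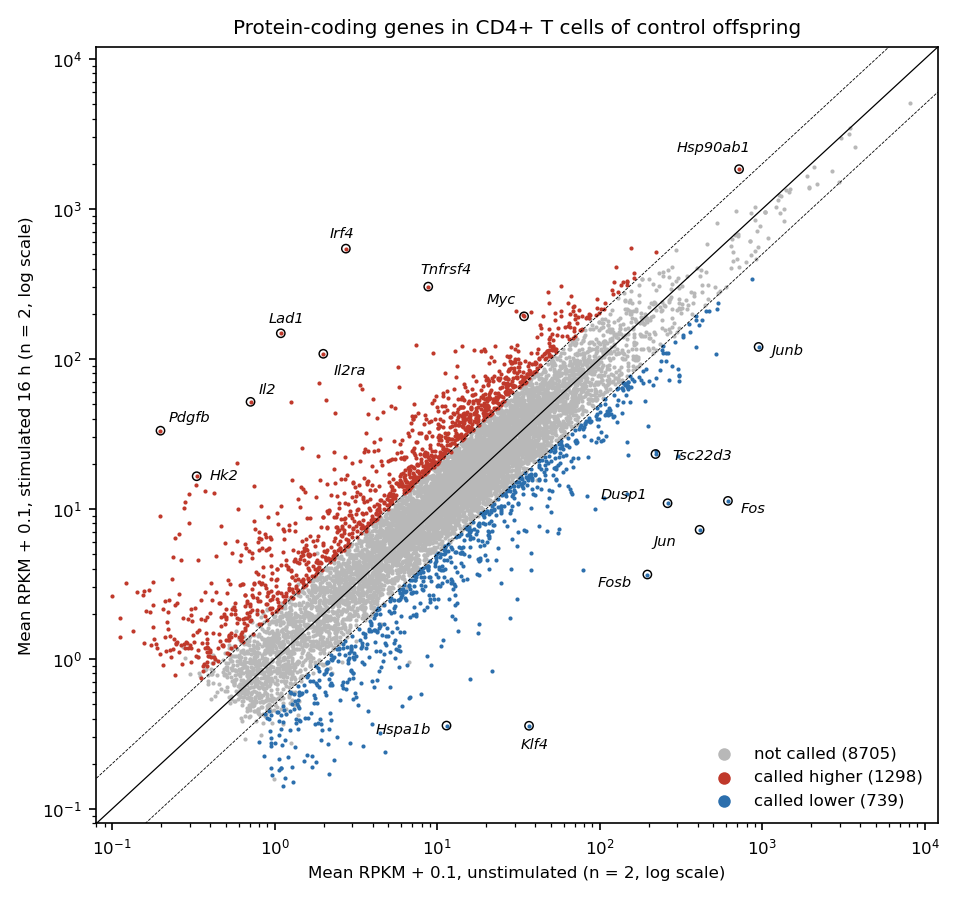
Mean level of each protein-coding gene tested in unstimulated (horizontal axis) and stimulated (vertical axis) CD4+ T cells of control offspring, in RPKM + 0.1 on log axes, with 2 libraries a group. Red points are the 1298 genes that rose and blue points the 739 that fell, dashed lines mark a 2-fold change, and circles mark named genes: Irf4 and Pdgfb lie farthest above the diagonal and Klf4, Fos and Jun far below it.

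The AP-1 genes Fos, Fosb, Jun, Junb and Jund all had high levels in unstimulated cells, and all fell with stimulation. Unstimulated cells were lysed after selection and sorting, and the part of this handling in their levels was not tested. Fos, which encodes the partner of Jun in the AP-1 dimer, stood at 577 and 651 RPKM without and at 11.1 and 11.2 RPKM with stimulation, a 55.0-fold fall in the mean. Jun was at 433 and 389 RPKM and then at 7.63 and 6.68 RPKM. Both stimulated libraries lay far below both unstimulated libraries for either gene. Fosb fell from 175 and 217 RPKM to 3.39 and 3.72 RPKM (log2 fold change -5.74, standard error 0.10). Junb, the most abundant of the 5 in unstimulated cells, fell from 1012 and 884 RPKM to 116 and 124 RPKM and remained the highest of the 5 after stimulation. Jund, often described as the AP-1 member of resting cells, had 310.3 and 307 RPKM without and 71.9 and 81.5 RPKM with stimulation. The log2 fold changes of Fos, Jun, Junb and Jund were -5.77, -5.82, -2.98 and -2.01, with adjusted p of 7.74e-08, 7.74e-07, 2.93e-06 and 1.05e-05 from limma.

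Immediate early genes as a list did not move in 1 direction. Of the 23 on the list, all tested, 11 fell, 5 rose and 7 were not called, and their median log2 fold change was -0.99, against 0.070 over all genes tested. Klf4, a Krüppel-like factor that restrains T cell proliferation, had the largest fall of any named gene, from 34.2 and 39.1 RPKM to 0.211 and 0.304 RPKM (log2 fold change -6.69, standard error 0.18, adjusted p = 2.83e-07 from limma). Dusp1, a phosphatase that switches off MAP kinases, went from 272 and 250.2 RPKM to 10.7 and 10.9 RPKM. Zfp36, which encodes an RNA-binding protein that speeds the decay of cytokine messages, fell from 555 and 483 RPKM to 106 and 110.4 RPKM. Klf6, Btg2 and Ier5 also fell, although Ier5 had a log2 fold change of -0.98 without the control unstimulated replicate 6.

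The immediate early genes that rose were Nr4a3, Egr3, Egr2, Atf3 and Fosl1. Nr4a3, an orphan nuclear receptor, rose from 12.6 and 15.3 RPKM to 122 and 121 RPKM. Egr3 and Egr2, zinc finger factors downstream of NFAT, rose from 9.93 and 12.1 to 76.3 and 83.8 RPKM and from 8.93 and 8.11 to 23.5 and 23.5 RPKM. Neither group of libraries overlapped the other in these 3 genes, whose log2 fold changes were 3.12, 2.85 and 1.46. Atf3 and Fosl1 rose from low levels, Atf3 from 0.478 and 0.496 to 2.12 and 1.43 RPKM and Fosl1 from 0.228 and 0.252 to 1.51 and 1.42 RPKM, and neither was called with a pseudocount of 1 RPKM. Without the control stimulated replicate 6, Atf3 was at 1.38 on the log2 scale and was not called either. Egr1, at 97.4 and 82.2 RPKM and then 126 and 134 RPKM, and Nr4a1, at 177 and 173 RPKM and then 218 and 259.7 RPKM, were high in both states and were not called.

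**Figure D2:**
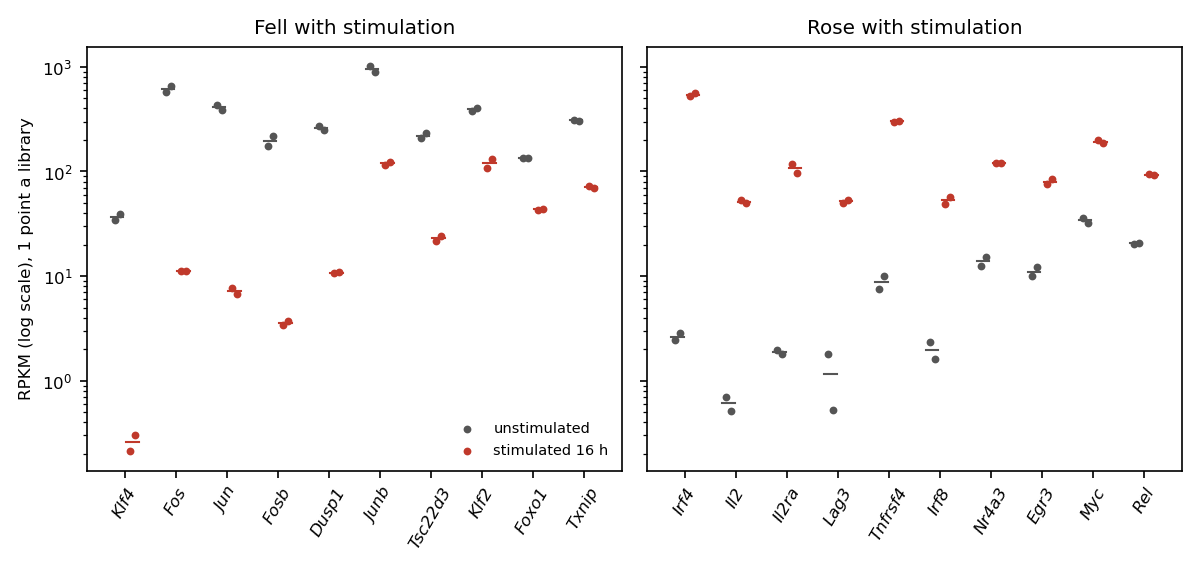
RPKM (log axis) of 10 genes that fell and 10 that rose, with 1 point for each control library and a line at the mean of 2 libraries. In each gene both stimulated libraries (red) lie on 1 side of both unstimulated libraries (grey); Irf4 rises to 525 and 561 RPKM while Fos, at 577 and 651 RPKM before, ends at 11.1 and 11.2 RPKM.

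Transcription factors of activated T cells rose as a large part of their list: 13 of the 27 tested rose, 4 fell and 10 were not called, with a median log2 fold change of 0.76. Irf4, which scales with the strength of the receptor signal and is needed for effector differentiation, went from 2.43 and 2.86 RPKM to 525 and 561 RPKM, a 205-fold rise in the mean (log2 fold change 7.63, standard error 0.11, adjusted p = 7.74e-08 from limma). No other transcription factor on the list reached the stimulated level of Irf4. Irf8, a relative of Irf4, rose from 2.36 and 1.60 RPKM to 49.4 and 56.7 RPKM. Bhlhe40, which promotes cytokine production by helper cells, had 5.02 and 3.25 RPKM without and 42.6 and 38.4 RPKM with stimulation. Myc, the driver of growth after activation, was already expressed at 35.9 and 32.3 RPKM and reached 198 and 187 RPKM (log2 fold change 2.49, standard error 0.11). Batf, the partner of Irf4 on shared sites, differed little, with 23.2 and 24.2 RPKM before and 22.0 and 18.1 RPKM after.

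All 4 NF-kB subunits on the list rose. Rela, a further subunit, was not on the list. Rel, the subunit most tied to interleukin 2 transcription, rose from 20.4 and 20.8 RPKM to 94.7 and 91.7 RPKM, and Nfkb1 from 67.0 and 65.9 RPKM to 259 and 269 RPKM. Nfkb2 and Relb, of the alternative pathway, had log2 fold changes of 1.78 and 1.51. Of the STAT factors, Stat5a, which relays the interleukin 2 signal, rose from 25.0 and 24.4 RPKM to 81.1 and 78.3 RPKM, whereas Stat5b stood at 56.8 and 59.9 RPKM before and 57.2 and 56.6 RPKM after stimulation and Stat3 at 62.1 and 59.4 RPKM before and 59.1 and 63.4 RPKM after stimulation. Hif1a, a driver of glycolysis, and Ahr, a receptor for aromatic ligands, rose with log2 fold changes of 1.39 and 1.76. Ikzf4 rose from 2.19 and 2.71 RPKM to 15.4 and 16.0 RPKM. The 4 factors that fell were Nfil3, Id2, Maf and Tox, with log2 fold changes from -1.56 to -1.08. Maf did not pass without the control unstimulated replicate 6 or without either stimulated replicate, and the log2 fold change of Tox was -0.97 without the control stimulated replicate 7.

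Of 13 genes of helper lineages tested, 2 were called and 11 were not, a share of calls near the 19.0% of all coding genes. Their median log2 fold change was -0.01. Tbx21, the factor of interferon-producing cells, had 4.38 and 5.19 RPKM without and 4.87 and 8.28 RPKM with stimulation, a difference within the spread of the libraries (log2 fold change 0.41, standard error 0.42). Gata3, its counterpart in cells that make interleukin 4, was at 40.4 and 37.9 RPKM and then at 20.8 and 20.1 RPKM and just missed the 2-fold threshold. Foxp3, the factor of regulatory T cells, was at 5.08 and 4.84 RPKM before and 7.29 and 5.98 RPKM after stimulation and was not called, while Lrrc32, a surface protein of activated regulatory T cells, rose from 0 in both libraries to 2.49 and 2.53 RPKM. Zbtb7b, which fixes the CD4 fate, fell from 76.4 and 76.8 RPKM to 34.5 and 38.3 RPKM. That call was lost without stimulated replicate 6, where the log2 fold change was -1.0.

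Of 36 genes of quiescence and of the naive state, all tested, 13 fell, 2 rose and 21 were not called. The median log2 fold change was -0.88 and 31 of the 36 values were negative. Their share of the RPKM of coding genes went from 2.24% and 2.30% to 1.27% and 1.29%. Tsc22d3, a glucocorticoid-induced inhibitor of AP-1 and NF-kB, fell most, from 208 and 232 RPKM to 21.8 and 24.4 RPKM. Foxo1, the factor that holds the naive programme, fell from 136 and 136 RPKM to 43.1 and 44.1 RPKM (log2 fold change -1.64, standard error 0.041). Its known target Klf2 fell from 378 and 406 RPKM to 108 and 130.3 RPKM, and S1pr1, the receptor that lets T cells leave lymphoid organs, from 236 and 232 RPKM to 82.9 and 86.2 RPKM.

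Brakes on growth and signalling were among the other members that fell. Txnip, which limits glucose uptake, went from 312 and 304 RPKM to 72.0 and 69.3 RPKM. Tob1, an antiproliferative protein, had 57.7 and 53.8 RPKM and then 14.9 and 13.7 RPKM. Pik3ip1, an inhibitor of PI3 kinase, and Dgka, which removes diacylglycerol, fell with log2 fold changes of -1.38 and -1.29. Btg1 and Btg2, cofactors of mRNA deadenylation that keep T cells at rest, fell by 1.25 and 1.27 on the log2 scale. Gimap6 and Klf13 fell as well, although Gimap6 was at -0.93 with quantile normalization.

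Several canonical genes of the naive state were not called. Tcf7, which encodes TCF-1, was at 902 and 888 RPKM without and 512 and 537 RPKM with stimulation. Il7r, the receptor for the survival cytokine interleukin 7, was at 231 and 238 RPKM before and 130.4 and 121 RPKM after stimulation, and Lef1 at 286 and 282 RPKM before and 142 and 144 RPKM after stimulation. In each, both stimulated libraries lay below both unstimulated ones, by less than 2-fold. Ccr7, a chemokine receptor of lymph node homing, went the other way without a call, from 269.8 and 258 RPKM to 381 and 406 RPKM. Id3 and Bach2, repressors that hold back effector genes, rose, Id3 from 26.3 and 30.1 RPKM to 83.1 and 91.6 RPKM and Bach2 from 33.3 and 35.4 RPKM to 75.2 and 76.7 RPKM.

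Of 27 cytokine genes listed, 14 passed the filter on low values, and 7 of these rose, 1 fell and 6 were not called. Il2, the T cell growth factor, rose from 0.703 and 0.517 RPKM to 53.0 and 50.2 RPKM, an 84.6-fold rise in the mean (log2 fold change 6.20, standard error 0.14, adjusted p = 1.87e-07 from limma). Lif, of the interleukin 6 family, rose from 0.262 and 0.197 RPKM to 15.4 and 13.4 RPKM. Members of the tumour necrosis factor family made up the other 5 that rose. Tnf itself went from 20.7 and 21.6 RPKM to 103 and 102 RPKM and Lta from 10.4 and 8.43 RPKM to 54.6 and 51.9 RPKM. Tnfsf11, the ligand RANKL, rose from 4.65 and 4.20 RPKM to 24.0 and 17.3 RPKM. Tnfsf14 and Tnfsf8 had log2 fold changes of 1.17 and 1.02, and that of Tnfsf8 became 0.99 when unstimulated replicate 6 was left out and 0.87 when stimulated replicate 6 was.

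The cytokines that mark differentiated helper cells had low levels in both states. Ifng, which encodes interferon gamma, fell from 9.03 and 7.57 RPKM to 2.93 and 3.02 RPKM (log2 fold change -1.44, standard error 0.26). That call was lost without the control unstimulated replicate 6, at -1.32, and without either stimulated replicate, at -1.42 and -1.46. Il4 had 0.329 and 0.872 RPKM without and 0.991 and 1.64 RPKM with stimulation and was not called. The 13 genes under the filter, among them Il3, Il5, Il10, Il13, Il17a, Il21 and Csf2, were under 1 RPKM in each control library, and Il6, Il9, Il22 and Il24 were at 0 in all 4. Cd40lg, the helper signal to B cells, stood at 79.6 and 70.7 RPKM before and 57.3 and 57.8 RPKM after stimulation and was not called. Fasl, the death ligand, was at 8.22 and 8.28 RPKM before and 6.35 and 6.38 RPKM after stimulation.

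Among the chemokines, Ccl4, an inflammatory chemokine, rose from 0.0842 and 0.558 RPKM to 11.8 and 13.5 RPKM, and the low genes Ccl3 and Ccl1 rose from 0.141 and 0.155 to 0.733 and 1.63 RPKM and from 0.110 and 0 to 1.53 and 3.56 RPKM. Ccl1 was not called where a level of over 1 on the log2(CPM) scale was also required. The call of Ccl3 was lost without either unstimulated replicate, at 2.23 and 2.32, and without the control stimulated replicate 7, at 1.75. Xcl1, at -1.09 on the log2 scale, was not called but passed without unstimulated replicate 7, at -1.44, and under both other scalings. Ccl5, a chemokine of memory and cytotoxic cells, fell from 20.4 and 36.7 RPKM to 2.54 and 5.22 RPKM. Prf1, which encodes perforin, the pore-forming protein of cytotoxic cells, fell from 15.9 and 19.4 RPKM to 1.504 and 1.25 RPKM, and both groups were apart (log2 fold change -3.59, standard error 0.13). Gzma, a granzyme at 0.253 and 1.54 and then at 0 and 0.117 RPKM, was not called, but passed without unstimulated replicate 6, at -3.47. The summed level of the 4 NK cell markers was lower too, at 4.47 and 4.42 RPKM without and 0.147 and 0.293 RPKM with stimulation, nearly all of it Klrb1c (4.35 and 4.29 RPKM, then 0.147 and 0.293 RPKM), while Ncr1 and Klra8 were at 0 in all 4 and Klre1 was at most 0.134 RPKM. Of the 8 myeloid markers, Itgam, which NK cells also carry, fell from 1.85 and 1.74 to 0.261 and 0.329 RPKM, and Lyz2, S100a8, S100a9 and Clec9a were listed at 0. The part of NK or myeloid cells in the values of Ifng, Ccl5 and Prf1 was not tested. In such bulk samples, fewer cells of a type and less RNA per cell cannot be told apart.

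Of 22 receptors for cytokines tested, 5 rose, 2 fell and 15 were not called, with a median log2 fold change of -0.58. Of all coding genes tested, 12.1% rose and 6.88% fell, and 2 of 22 is near the latter. Il2ra, which encodes CD25, the alpha chain that gives the interleukin 2 receptor its high affinity, rose from 1.97 and 1.80 RPKM to 117 and 97.6 RPKM (log2 fold change 5.75, standard error 0.10, adjusted p = 8.94e-08 from limma). The study describes the sort as CD25-, and the low starting level of this gene cannot be told apart from the gate. Il2rb, the beta chain, rose from 32.1 and 28.1 RPKM to 99.6 and 101 RPKM, whereas Il2rg, the chain shared with other receptors, was not called at 325 and 314 RPKM before and 228 and 235 RPKM after stimulation. Il12rb1, Il15ra and Tgfbr1 also rose, with log2 fold changes of 2.20, 1.62 and 1.42. Both chains of the interleukin 18 receptor fell, Il18r1 from 21.6 and 19.5 RPKM to 6.65 and 6.61 RPKM and Il18rap from 3.15 and 3.85 RPKM to 1.19 and 1.39 RPKM. Il18rap was not called with a pseudocount of 1 RPKM. Il4ra, Il6ra and Il21r, with log2 fold changes of -0.87, -0.89 and -0.64, were not called.

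Of the SOCS family, which damps cytokine signals, Cish rose from 9.19 and 9.34 RPKM to 113 and 106 RPKM (log2 fold change 3.55, standard error 0.063). Cish is a known target of STAT5. Socs3, known as a brake on interleukin 6 signals, fell from 21.0 and 19.96 RPKM to 6.76 and 7.21 RPKM. The other 6 members were not called, Socs1 among them with 19.4 and 17.1 RPKM before and 20.1 and 25.0 RPKM after stimulation. Leaving out unstimulated replicate 6 or stimulated replicate 7 made Socs5 a second call, at up to 1.05 against 0.98 with all libraries, and the replicate block did so for Socs2, at 1.36.

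Surface proteins of activation rose in 13 of the 22 genes tested, 1 fell and 8 were not called, and the median log2 fold change was 1.71. Costimulatory receptors of the tumour necrosis factor receptor family were among those that rose. Tnfrsf4, which encodes OX40, rose from 7.46 and 9.93 RPKM to 299 and 306 RPKM. Tnfrsf9, which encodes 4-1BB, rose from 5.63 and 5.64 RPKM to 88.4 and 88.0 RPKM, and Tnfrsf18, which encodes GITR, from 33.6 and 33.1 RPKM to 197 and 192 RPKM. In each of these 3 genes the spread within a group was small against the distance between groups. Icos, a relative of CD28, rose from 17.2 and 17.0 RPKM to 54.2 and 52.0 RPKM, whereas Cd28 itself, at 104 and 105 RPKM before and 149.8 and 140.5 RPKM after stimulation, was not called.

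Among the inhibitory receptors on the list, Lag3, Ctla4 and Pdcd1 rose, Cd160 fell, and Btla and Tigit, with log2 fold changes of 0.43 and 0.60, were not called. Lag3, which binds MHC class II, went from 1.80 and 0.521 RPKM to 50.1 and 53.6 RPKM; its unstimulated libraries differed from each other, and the standard error of its log2 fold change of 5.58 was 0.51. Ctla4, which competes with CD28 for its ligands, rose from 9.24 and 7.28 RPKM to 44.3 and 40.3 RPKM, and Pdcd1, which encodes PD-1, from 3.92 and 3.40 RPKM to 14.97 and 15.6 RPKM. The one gene on the list that fell was Cd160, a receptor of cytotoxic cells, from 3.77 and 4.30 to 1.92 and 1.81 RPKM, and its log2 fold change of -1.07 became -0.98 when unstimulated replicate 7 was left out. The ligands of PD-1 rose too, Cd274 from 13.6 and 12.9 RPKM to 85.0 and 94.5 RPKM and Pdcd1lg2 from 0.798 and 1.06 RPKM to 9.01 and 9.42 RPKM. Havcr2, which encodes TIM-3, stayed under 0.1 RPKM. Tfrc, the transferrin receptor that brings in iron, rose from 16.9 and 16.8 RPKM to 119 and 109 RPKM. Cd69, an early activation marker that holds cells in tissue, was already at 156 and 136 RPKM and rose to 326 and 322 RPKM, and Cd44, at 17.3 and 17.0 RPKM and then 34.3 and 32.6 RPKM, missed the 2-fold threshold.

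Of 22 genes of T cell receptor signalling tested, 3 fell, 1 rose and 18 were not called, a share of calls near the 19.0% of all coding genes, while 19 of the 22 log2 fold changes were negative (median -0.55). Themis, an adaptor that tunes receptor signals, fell from 66.3 and 66.6 RPKM to 23.7 and 18.1 RPKM. Cd3g, a subunit of the receptor complex, fell from 479 and 455 RPKM to 204 and 213 RPKM, and Prkcq, the kinase that links the receptor to NF-kB, from 157 and 159 RPKM to 73.9 and 72.4 RPKM; with quantile normalization Cd3g was at the threshold and not called. Zap70, the kinase recruited by the receptor, was the one that rose, from 101 and 104 RPKM to 209 and 220.0 RPKM, by 1.07 on the log2 scale, and by 0.99 after median-of-ratios scaling.

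**Figure D3:**
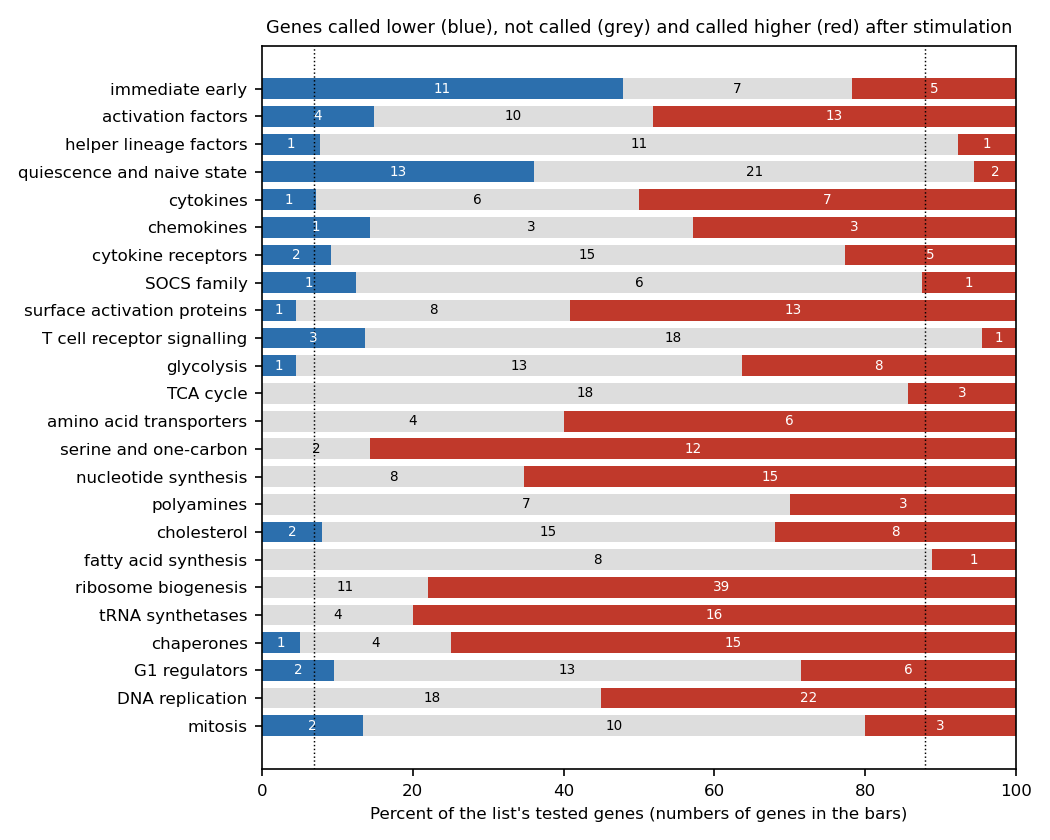
For each list, the percent of its tested genes called lower (blue), not called (grey) and called higher (red) after stimulation, with the numbers of genes in the bars. The dotted lines mark the shares of all coding genes tested that fell (6.88%, from the left) and that rose (12.1%, from the right); ribosome biogenesis, with 39 of 50, tRNA synthetases, with 16 of 20, and serine and one-carbon genes, with 12 of 14, are mostly red.

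Of 22 glycolytic genes tested, 8 rose, 1 fell and 13 were not called. Hk2, the inducible hexokinase that traps glucose in the cell, rose from 0.161 and 0.3005 RPKM to 17.4 and 15.4 RPKM (log2 fold change 5.67, standard error 0.23), while the constitutive Hk1 was at 37.2 and 34.6 RPKM before and 32.8 and 35.1 RPKM after stimulation. Ldha, which makes lactate, rose from 168 and 158 RPKM to 369 and 379 RPKM, and Slc16a1, which exports it, from 11.8 and 12.4 RPKM to 42.4 and 39.0 RPKM. Tpi1 and Pgam1 rose with log2 fold changes of 2.04 and 1.81. The glucose transporter Slc2a1 did not differ beyond its spread, with 12.3 and 13.5 RPKM before and 10.4 and 12.4 RPKM after stimulation, and Slc2a3 had 16.6 and 15.9 RPKM before and 9.96 and 10.2 RPKM after stimulation. Pdk1, whose product inhibits pyruvate dehydrogenase, fell from 97.2 and 95.0 RPKM to 41.4 and 38.3 RPKM. Gapdh, Pgk1, Pgam1, Tpi1, Aldoa and Ldha have processed copies in the genome, between which the counting could have split reads, so that their levels are uncertain. In the tricarboxylic acid cycle 3 of 21 genes rose, Fh1, Idh3a and Dlat, near the 12.1% of all coding genes that rose. None fell, against 6.88% of all coding genes, and the median log2 fold change was 0.32. Dlat was at 0.99 with quantile normalization.

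Of 10 amino acid transporters tested, 6 rose and none fell. Slc7a5, the light chain of the leucine transporter, rose from 16.6 and 16.6 RPKM to 74.4 and 78.2 RPKM, whereas its heavy chain Slc3a2 was at 39.7 and 39.7 RPKM before and 50.4 and 53.2 RPKM after stimulation. Slc1a5, for glutamine, and Slc7a1, for arginine, had log2 fold changes of 1.12 and 1.31, and that of Slc1a5 was 0.99 with quantile normalization. In the serine and one-carbon list 12 of 14 rose and none fell, with a median log2 fold change of 1.38. Phgdh and Psat1, which make serine from a glycolytic intermediate, rose from 10.6 and 10.0 to 37.8 and 41.5 RPKM and from 10.3 and 11.1 to 61.6 and 55.9 RPKM. Shmt1 and Shmt2, which pass its carbon to folate, rose from 6.14 and 7.87 to 41.2 and 38.7 RPKM and from 22.4 and 22.7 to 123 and 121 RPKM. Psph, the last step of serine synthesis, rose least, with a log2 fold change of 1.02. Leaving out unstimulated replicate 7 brought it to 0.93, and leaving out stimulated replicate 7 to 1.0. Mtr, of the methionine branch, was not called.

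Nucleotide synthesis rose in 15 of 23 genes and fell in none. Cad and Umps, of pyrimidine synthesis, rose from 14.4 and 15.01 to 63.5 and 66.2 RPKM and from 10.7 and 9.22 to 35.1 and 33.5 RPKM. In the purine pathway Pfas rose from 8.01 and 8.83 to 39.4 and 39.5 RPKM, and Ppat, Gart and Paics had log2 fold changes of 1.47, 1.49 and 1.23. Dck, a salvage kinase, and Rrm2b, a ribonucleotide reductase subunit of resting cells, had negative values of -0.74 and -0.66 and were not called. Polyamine genes rose in 3 of 10, Srm from 19.9 and 18.8 to 111 and 122 RPKM, Sms, and Odc1, the first enzyme, from 38.1 and 35.4 to 78.5 and 79.0 RPKM, although Odc1 was at 0.97 with quantile normalization.

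Of 25 genes of cholesterol synthesis and transport tested, 8 rose, 2 fell and 15 were not called. Among those that rose were Hmgcs1, an early enzyme of synthesis, from 23.5 and 24.2 to 77.4 and 66.3 RPKM, Sqle from 12.7 and 11.7 to 36.4 and 35.1 RPKM, and Idi1 from 4.56 and 4.37 to 21.2 and 18.1 RPKM. The 2 that fell encode exporters of cholesterol, and 2 of 25 is near the 6.88% of all coding genes that fell. Abca1 went from 5.35 and 6.54 to 0.414 and 0.351 RPKM and Abcg1 from 30.6 and 32.3 to 7.07 and 6.65 RPKM. Of 9 fatty acid genes tested, 1 rose, Acaca, the rate-limiting carboxylase, from 3.18 and 3.55 to 9.35 and 9.36 RPKM, and 1 of 9 is near the 12.1% of all coding genes that rose. Fasn, the fatty acid synthase, was at 24.2 and 27.5 and then at 51.9 and 49.7 RPKM and just missed 2-fold; leaving out either control replicate 7 made it a second call, at up to 1.06 on the log2 scale.

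Of 50 genes of ribosome biogenesis, all tested, 39 rose and none fell, all 50 log2 fold changes were above 0 (0.28 to 2.23), and the median was 1.37. As a share of the RPKM of all coding genes, the list went from 0.485% and 0.491% to 1.26% and 1.21%. Ncl, the nucleolar protein nucleolin, rose from 126 and 124 RPKM to 429.9 and 388 RPKM. Of the box C/D core, which guides methylation of ribosomal RNA, Nop58 rose from 58.5 and 56.1 to 214 and 200.2 RPKM, Fbl from 33.5 and 33.5 to 82.2 and 80.7 RPKM and Nop56 from 70.1 and 70.0 to 142 and 141 RPKM; Nop56 lay at 1.01 and was at 0.94 after median-of-ratios scaling and 0.95 with quantile normalization. Bysl, Nol6 and Nle1 also ended under 2-fold with quantile normalization, at 0.91, 0.90 and 0.98. Of the box H/ACA core, which guides pseudouridylation, Dkc1, Gar1 and Nhp2 rose with log2 fold changes of 1.95, 1.87 and 1.995, and Nop10, at 0.83, was not called. Of RNA polymerase I, Polr1b, the second largest subunit, rose from 13.2 and 13.3 to 53.5 and 54.7 RPKM, while Polr1a, the largest, was at 24.6 and 25.7 RPKM before and 38.3 and 39.1 RPKM after stimulation and was not called. Nop2 rose from 20.4 and 19.3 to 73.9 and 71.0 RPKM.

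Cytosolic tRNA synthetases rose in 16 of 20 genes and fell in none, with log2 fold changes from 0.37 to 1.63. Iars, Wars and Kars, which charge isoleucine, tryptophan and lysine, were the highest in fold. Sars, Qars, Dars and Hars were not called. Farsa, at 1.01, was at 0.91 when unstimulated replicate 6 was left out and at 0.99 when stimulated replicate 7 was. Chaperones rose in 15 of 20 genes. Hsp90ab1, the constitutive cytosolic HSP90, gained more RPKM than any other coding gene, from 726 and 711 RPKM to 1874 and 1796 RPKM. All 8 subunits of the TRiC chaperonin on the list rose, Cct3 most, from 67.8 and 69.6 to 223 and 216 RPKM. The mitochondrial chaperonin pair Hspd1 and Hspe1 rose with log2 fold changes of 2.54 and 1.32. Dnaja1, a cochaperone induced by stress, fell from 30.8 and 37.6 to 15.3 and 14.8 RPKM, and Hspa5, the chaperone of the endoplasmic reticulum, was at 323 and 289.5 RPKM before and 301 and 295 RPKM after stimulation.

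Of 21 regulators of the G1 phase, 6 rose and 2 fell. Ccnd2, the D cyclin most abundant in these cells, rose from 121 and 125 RPKM to 334 and 319 RPKM. Its kinase partners rose as well, Cdk6 from 3.62 and 3.45 to 33.9 and 29.6 RPKM and Cdk4 from 62.5 and 53.6 to 144 and 141 RPKM. E2f1 and E2f3, activators of S phase genes, rose with log2 fold changes of 1.47 and 2.43. Cdkn1a, which encodes the kinase inhibitor p21, rose from 0.521 and 0.454 to 18.9 and 21.4 RPKM, the largest change on the list (log2 fold change 5.10, standard error 0.27). Cdkn2d, another kinase inhibitor, fell from 49.9 and 46.6 to 11.5 and 12.0 RPKM, and Cdkn1b, which encodes p27, was at 112 and 97.4 RPKM before and 59.5 and 56.4 RPKM after stimulation and was not called. The other gene that fell was E2f2, at -1.15 on the log2 scale and at -0.94 with a pseudocount of 1 RPKM. Ccne1 and Ccne2, the cyclins of the entry into S phase, were not called at 3.36 and 3.05 and 1.28 and 0.959 RPKM in stimulated cells.

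Of 40 replication genes, 22 rose and none fell (median log2 fold change 1.16), whereas of 28 mitosis genes 15 passed the filter, of which 3 rose and 2 fell (median 0.11). The helicase subunits Mcm5 and Mcm6 rose from 11.4 and 11.3 to 48.9 and 41.9 RPKM and from 27.5 and 25.9 to 110.2 and 97.4 RPKM, and Mcm2, Mcm3 and Mcm7 also rose. Uhrf1, which maintains DNA methylation at the fork, rose from 1.02 and 1.34 to 16.7 and 14.1 RPKM, and Gins2 from 0.911 and 0.709 to 9.86 and 7.48 RPKM. Pcna, the sliding clamp, was high from the start, 101 and 101 RPKM, and stood at 102 and 102 RPKM. Mki67, a marker of cycling cells, had 0.949 and 0.731 RPKM before and 0.409 and 0.362 RPKM after stimulation and was not called. The cyclins Ccna2 and Ccnb1 and the kinase Cdk1 did not reach 1 RPKM in any control library, and 18 of the 28 mitosis genes stayed under 1 RPKM in all 4. The mitosis genes that rose were Bub1b, Top2a and Cdc20, the last not called with a pseudocount of 1 RPKM, and those that fell Kif23 and Cenpa, Kif23 from 3.36 and 3.81 to 1.11 and 1.19 RPKM. Whether the 2 lists differ was not tested.

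**Figure D4:**
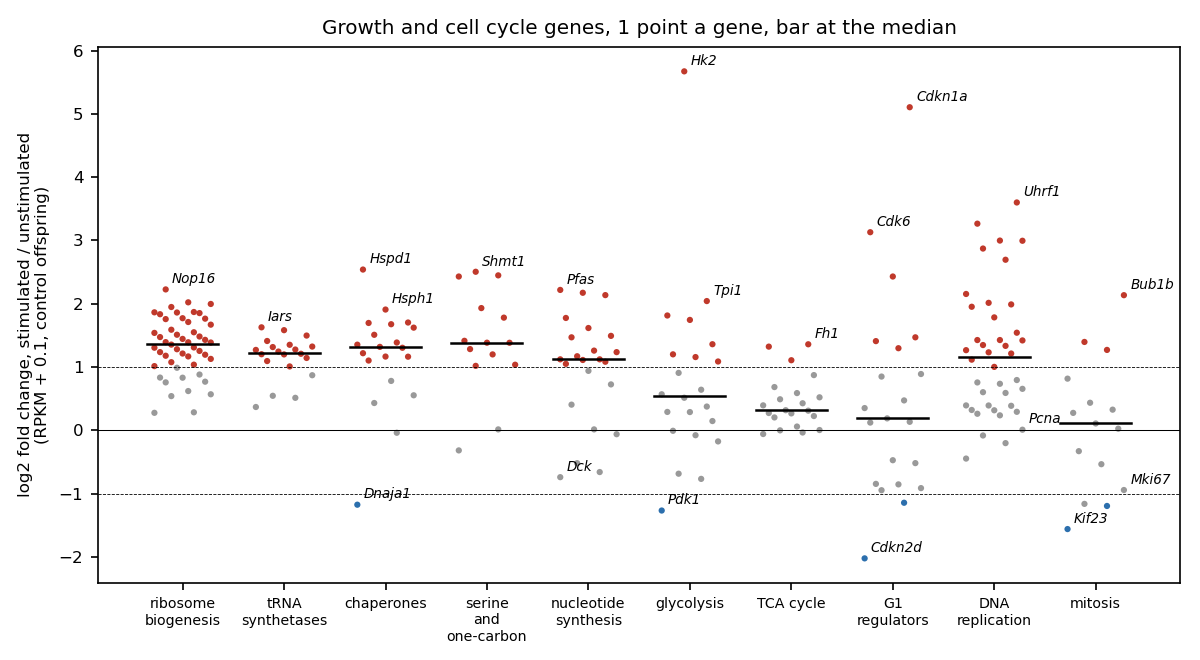
Log2 fold change (stimulated against unstimulated, RPKM + 0.1) of each tested gene of 10 lists, with 1 point a gene, red where it rose, blue where it fell and grey where it was not called; bars mark the list medians and dashed lines a 2-fold change. Ribosome biogenesis genes all lie above 0 with a median of 1.37, and the mitosis genes scatter around a median of 0.11.

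By size of change alone, the 15 largest increases among coding genes with a mean of at least 5 RPKM held, besides Irf4, Il2, Il2ra, Hk2, Lag3, Lif, Ccl4 and Tnfrsf4, genes outside the lists. Pdgfb, a chain of platelet-derived growth factor, rose from 0.113 and 0.0834 RPKM to 32.2 and 34.0 RPKM, and Lad1, an anchoring filament protein known from epithelia, from 0.873 and 1.11 RPKM to 151 and 145 RPKM. Ccr8, a chemokine receptor of activated and regulatory T cells, rose from 1.73 and 1.80 to 64.9 and 73.6 RPKM, and Bcat1, the cytosolic aminotransferase of branched-chain amino acids, from 0.172 and 0.182 to 10.6 and 9.63 RPKM. Psrc1, Cpd and Adarb1 rose with log2 fold changes of 5.41, 5.35 and 5.15. The 15 largest decreases held, besides Klf4, Jun, Fos, Fosb, Dusp1 and Prf1, the stress genes Hspa1b, from 11.4 and 11.3 to 0.206 and 0.311 RPKM, and Ppp1r15a, which restores translation after stress, from 322 and 287 to 22.0 and 22.8 RPKM. Cxcr4, the receptor for the chemokine CXCL12, fell from 129 and 165 to 11.9 and 13.1 RPKM. Dtx1, a regulator of Notch signals, fell from 73.0 and 83.9 to 3.69 and 3.89 RPKM, and Sgk1, a kinase downstream of PI3 kinase, from 29.4 and 26.7 to 1.79 and 1.76 RPKM. Rgs2, Cebpb, Slc16a5 and A530021J07Rik completed the 15, with log2 fold changes of -3.63, -3.41, -4.72 and -4.42.

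Of the 10 highest coding genes in stimulated cells, 1 was called, Hsp90ab1. Actb, which encodes beta-actin, was at 3414 and 3486 RPKM before and 3394 and 3520.1 RPKM after stimulation, and Eef1a1, a translation elongation factor, at 3605 and 3238 RPKM before and 3199 and 3107 RPKM after stimulation; neither was called. The mitochondrial COX1, the highest in both states, was at 8515 and 7614 RPKM before and 5104 and 5021 RPKM after stimulation, less than 2-fold apart. The 100 highest coding genes of a library held 29.1% and 27.8% of the RPKM of coding genes without and 23.1% and 23.2% with stimulation. The 10 genes with the largest loss, among them COX1, CYTB, Rplp1, B2m, Junb and Fos, held 15.5% of all RPKM lost, and the 10 with the largest gain, led by Hsp90ab1, Irf4 and Eif5a, held 5.98% of all RPKM gained. Of the 10 with the largest loss, Junb and Fos were called, and Rps27rt and other ribosomal protein genes among them have near-identical copies. Eif5a, which helps ribosomes past difficult motifs, rose from 162 and 148 RPKM to 543 and 556 RPKM.

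In Cd offspring, whose libraries are separate from those of control offspring, stimulation changed 18.5% of the coding genes tested. Of the 1298 coding genes that rose in control offspring, 84.5% also rose in Cd offspring, and of the 739 that fell, 79.0% also fell; none was called in the opposite direction. Of all coding genes called in Cd offspring, 84.4% had the same call in control offspring. The log2 fold changes in control and Cd offspring were 7.63 and 7.58 for Irf4, 6.20 and 6.87 for Il2, 5.75 and 5.47 for Il2ra, 2.49 and 2.39 for Myc, -5.77 and -5.16 for Fos and -6.69 and -6.43 for Klf4. In the ribosome biogenesis list 39 genes rose in each, 37 of them shared, and in the mitosis list 3 rose in each. The difference between the responses passed an adjusted p of 0.05 in limma for 22 coding genes (0.205% of those tested), and of the genes on the lists for Hsph1 only. Over all genes it passed for 45 (0.357%). That number was 27 when unstimulated replicate 6 of the control group was left out, 3 when stimulated replicate 6 was, and 28 when stimulated replicate 7 was. The adjusted p of the difference was 0.927 for Irf4, 0.295 for Il2 and 0.135 for Fos (limma), which does not show that these responses are equal.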

How the data were processed

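Poly(A) RNA of 4 groups of 2 libraries each was sequenced, and the authors used Subread for alignment (mm10) and featureCounts for counts per RefSeq gene; the versions, the treatment of multi-mapping reads and the use of strand are not given in the sources used here. The deposited table holds log2 values, which the authors had made as log2(RPKM + 1) with an offset of 0.0001 added; these were turned back into RPKM. Read numbers were inferred from the step sizes of low values (tolerance 0.01 reads; all 17794 genes above 0 in at least 2 libraries), which gave library totals of 15542728 to 25486784 reads. The recovery was tested on simulated data, in which 99.0% of genes had all reads recovered. Of the 27179 genes, 8206 were at 0 in all libraries, and 25275 were matched to RefSeq by their ID for symbols and for coding status. Rn45s, a precursor of ribosomal RNA, held 3.75 to 5.52% of reads.

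Genes with a mean of at least 0.5 RPKM over the 8 libraries were tested with limma 3.58.1 in R 4.3.3 on log2(RPKM + 0.1), with 4 group means, a trend in the prior and Benjamini-Hochberg adjustment over all 12605 genes. The 4 groups shared 1 estimate of the spread. Calls needed more than 2-fold and an adjusted p under 0.01; for the difference in response between both kinds of offspring, the threshold was 0.05. The study's methods name edgeR on counts, which was not used here because the table holds no counts. Lists were described by counts and medians, with no test. Named genes were the members of the lists, the 15 largest increases and decreases among called coding genes with a mean of at least 5 RPKM in control libraries and no overlap of groups, the 10 largest gains and losses of RPKM, and the 10 highest genes of each control group. The comparison, its members and the lists were chosen with earlier results of these data known. Alternatives were other pseudocounts, filters, scalings and priors, the control libraries alone, voom on recovered reads, a replicate block and each control library left out. Promoters were read from RefSeq (GRCm38.p6), 1 a gene. Python 3.11.15 with pandas 2.3.3 and matplotlib 3.10.9 was used for the rest. lncRNAs were not analysed here. Some genes of the lists are counted but not reported here by name.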

Additional observations from a re-analysis of the deposited data

Results flagged for a closer look

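Hsph1, which encodes a cochaperone of HSP70, was the one named gene whose response differed between control and Cd offspring by a test of the difference itself. Its mean level went from 27.8 to 105 RPKM in control offspring and from 54.1 to 104 RPKM in Cd offspring, with log2 fold changes of 1.91 and 0.94. The difference was -0.965 on the log2 scale (standard error 0.136, adjusted p = 0.0462 from limma). The stimulated groups had like means and the unstimulated groups did not. Over the alternatives the difference lay between -0.907 and -1.023, with an adjusted p of 0.0452 to 0.192. It missed 0.05 after median-of-ratios scaling (0.0665), with the replicate block (0.0964), with no trend in the prior (0.173) and without each control library in turn (0.0955 to 0.192). Those alternatives were in part chosen after seeing the data.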

How the results depend on the processing

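The count of 2353 genes called in control offspring stayed within 1.5 times under each alternative, from 1704 with a pseudocount of 1 RPKM to 2644 with no filter, and from 2138 to 2259 without 1 of the control libraries. The share of called genes that rose was 61.6%, and 54.8% after median-of-ratios scaling and 53.3% with quantile normalization, which moved the median of all genes by -0.103 on the log2 scale. Of 272 named genes called, 231 were called under every alternative, 41 lost the call under at least 1 and none reversed. Of 750 list counts compared, 31 moved by over 1.5 times, and their largest main count was 5. The 45 genes whose response differed between Cd and control offspring became 25 with the replicate block, 4 with no trend in the prior and, in fits added after seeing the data, 3 to 37 without 1 control library; the cause was not tested.

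The replicate numbers 6 and 7 were shared between groups, but nothing in the labels ties them to animals or days. Deviations of replicate 7 from 6 correlated at 0.064 between the control groups and 0.009 between the Cd groups, across genes. Such values cannot tell whether the libraries of 1 replicate number were paired. The main fit took no pairing. The replicate block gave 2326 called genes, of which 2291 were also called without it. Depth limits genes of low level. Apart from that, 1179 genes with reads in 1 library gave no recovered count, because the recovery needs values above 0 in at least 2 libraries.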
